A study of Rattus norvegicus and Bos taurus with 6 samples.

Results

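The stromal progenitor nuclei of cow fat were picked from 1 single-nucleus RNA library of subcutaneous white adipose tissue by the transcripts they carried. A nucleus was taken when it held at most 15000 unique molecular identifiers (UMIs, each standing for 1 captured transcript), when its UMIs summed over 10 stromal genes, called A here, were at least 5, and when A was more than 2 times B, the UMIs summed over 8 vascular and immune genes. The 10 genes of A were PDGFRA, DCN, FBN1, COL1A2, C7, BICC1, MFAP5, SCARA5, DPP4 and PI16. The 8 genes of B were PTPRB, PECAM1, PTPRC, MRC1, DOCK2, NOTCH3, MYH11 and RGS5. By this rule 522 of the 2064 cow nuclei with at most 15000 UMIs were taken, 25.3% (95% exact binomial interval 23.4 to 27.2), out of 2297 cow nuclei and 19424 nuclei in the 6 libraries of the series.

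The study worked on isolating nuclei from fat of rats and cows for sequencing. The cow library came from the flank of female Holstein dairy cows, described as healthy, early in lactation, on a common lactation diet and kept in tie-stalls, and the tissue was snap frozen. It was made with the Parse Evercode WT v3 kit, which barcodes RNA inside fixed nuclei in rounds of pooling and splitting. Neither the age of the cows nor their number is given in the sources used here, and nothing shows which nucleus came from which cow. With 1 library there was no replicate, so no test was made, and every interval below covers counting error only.

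In fat, stromal progenitors sit around vessels and in the fibrous septa, where they lay down collagen and other matrix and can turn into new adipocytes. Their usual surface marker is PDGFRA, a receptor for platelet-derived growth factor. In rodents and people DPP4, a cell surface peptidase, and PI16, a protein of the peptidase inhibitor family, mark progenitors of the fibrous interstitium that are less committed to the fat lineage, while ICAM1 marks committed preadipocytes.

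The set held 2629423 UMIs. Its nuclei had a median of 3970 UMIs, with a lowest of 1197, a highest of 14861 and a median of 1943 genes, against 2867 UMIs and 1459.5 genes in the other 1542 cow nuclei under the same limit, so the set was the deeper group. The share taken was 25.4% in sublibrary 1 and 25.2% in sublibrary 2, and 25.5% and 25.1% in the 2 first-round wells that held cow nuclei, A11 and A12. The sources used here do not say whether both wells held nuclei of the same cows. No cow barcode was found in the rat Parse libraries. A barcode is made of wells, the first-round well among them, so this is no check for RNA shared between libraries. The most abundant entry, which has an identifier but no symbol (ENSBTAG00000066082), took 14.0% of the UMIs of the set and 13.8% of those of the other nuclei, and it differed between wells, with 10.9% in A11 and 16.6% in A12.

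The values that chose the members were spread widely. A had a median of 22 UMIs over the 522 nuclei, from 5 to 402, and 167 nuclei, 32.0%, had no UMI of B. At the lower edge, 33 cow nuclei with A of 5 were inside and 27 with A of 4 and 45 with A of 3 lay outside on that value, with median depths of 1922, 1834 and 1923 UMIs. On the other edge, 61 members had A at most 3 times B, while 255 nuclei with A of at least 5 were left out because A was at most 2 times B, 79 of them with A still above B. A further 122 of the 233 cow nuclei above 15000 UMIs met the rest of the rule, at a median of 28481 UMIs, and were left out as too deep.

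Of the genes in the rule, FBN1, which codes for the microfibril protein fibrillin-1, was found in 94.4% of the members, and COL1A2, a chain of type I collagen, in 88.7%. SCARA5, a ferritin receptor, was found in 71.8% and BICC1, an RNA-binding protein, in 71.1%. The microfibril-associated MFAP5 reached 57.5%, the small proteoglycan decorin (DCN) 54.8% and PDGFRA 53.4%. PI16 with 16.3%, the complement component C7 with 15.5% and DPP4 with 9.20% were found in few members. FBN1 was also found in 50.1% of the other nuclei, COL1A2 in 25.7% and PDGFRA in 6.68%. These shares describe the rule and are no finding about the cells.

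The label was set beside markers of other cell types. Reference nuclei of 5 other classes were taken from the same library by a like rule on their own marker lists, giving 363 endothelial, 127 macrophage, 108 adipocyte, 97 mural (pericyte and smooth muscle) and 15 lymphocyte nuclei. The endothelial, mural and macrophage lists share genes with B and the reference nuclei were picked on these lists, so the levels that follow are partly fixed by the rules and are a description. Summed over its list, the endothelial level in the set was 680.0 CPM (UMIs scaled to 1000000 per group) against 6985 in endothelial reference nuclei, the mural level 507.7 against 6697, the macrophage level 562.1 against 7383 and the lymphocyte level 128.9 against 5521. The adipocyte list, which the rule does not screen, stood at 1584 CPM in the set against 17349 in adipocyte reference nuclei, led by ACACA, the first enzyme of fatty acid synthesis, at 684.9. At least 5 UMIs of adipocyte markers were held by 91 members, 17.4%, and 34 members, 6.51%, held more of them than of A. None of the measured markers of these 5 lists was at 0 in the set. Mesothelial markers summed to 16.7 CPM and skeletal muscle markers to 78.0. The symbols ADIPOQ and PPARG were not found among the gene names, so these genes were not analysed here. In 313 members, 59.96%, A was more than 2 times the summed markers of all 5 other classes, and these nuclei held 397.9 CPM of adipocyte, 335.1 of endothelial, 322.1 of mural and 259.3 of macrophage markers.

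Against the other cow nuclei, most matrix genes and most genes of the interstitial progenitor list were higher in the set. Levels are CPM over the summed nuclei of a group. Of 13204 genes with at least 50 UMIs, 646 were higher in the set by 2-fold or more (4.89%) and 1141 were lower (8.64%), with a median log2 ratio of −0.07 over all of them. The members were chosen by genes of this same contrast, so these counts describe the set and support nothing.

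The 25 named genes outside the rule with the highest ratio, among those with at least 200 UMIs in the set and a UMI in at least 10% of its nuclei, were 7.68-fold to 36.9-fold higher. All 25 were at least 2-fold above each of the 5 reference classes, of which the lymphocyte class had only 15 nuclei, and they were found in 15.9% to 77.0% of members. Reference nuclei had to be low in A against their own markers, and the 25 were picked over nuclei that include them. Standing above the reference classes is therefore partly fixed by the choice and is a description, here and in the lists below. The highest ratio was that of TNFAIP6, a secreted protein that binds hyaluronan, with 106.5 CPM (94.4 to 119.7) in the set and 2.88 in the other nuclei. Its level was 114.4 CPM in sublibrary 1 and 98.6 in sublibrary 2, but 136.7 in well A11 and 80.2 in well A12. Among the reference classes TNFAIP6 was highest in lymphocyte nuclei, at 21.6 CPM on 1 UMI. GFPT2, an enzyme of the hexosamine pathway that feeds glycosylation, stood at 378.8 CPM (355.6 to 403.1) against 17.9, a ratio of 21.1 (17.3 to 25.9). It was found in 43.1% of members and 5.12% of the other nuclei, and its wells gave 368 and 388 CPM.

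Several of these genes code for matrix proteins. LAMA2, the laminin chain of muscle and stromal basement membranes, stood at 1956 CPM (1903 to 2010) against 160.7 and was found in 75.5% of members. ABI3BP, a matrix protein, stood at 1055 CPM (1016 to 1095) against 82.9 and was found in 77.0%. Dermatopontin (DPT) was 10.9-fold higher, fibulin-1 (FBLN1) 9.31-fold, and the procollagen enhancer PCOLCE2 7.81-fold. MRC2, which takes up collagen into cells, was 8.88-fold higher and the metalloprotease ADAM33 8.15-fold.

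Others code for signals and receptors. FGF7 and FGF10, growth factors that stromal cells send to neighbouring epithelium, were 11.3-fold (9.09 to 14.3) and 9.41-fold (7.98 to 11.2) higher. FGF10 is also known for its part in fat development, and in the set it was found in 37.2% of nuclei. The chemerin receptor CMKLR2 was 18.4-fold higher, the lysophosphatidic acid receptor LPAR1 10.7-fold and the cytokine IL18 9.32-fold. MEDAG, a protein known to promote fat cell formation, was 16.02-fold higher (12.2 to 21.4) and was found in 34.9% of members. MYOC, a secreted glycoprotein, was 9.91-fold higher and TNNT3, the troponin T of fast muscle fibres, 9.15-fold, while the skeletal muscle list as a whole held 78.0 CPM in the set and 76.4 in the other nuclei. The remaining genes were CCN5, GPX3, LVRN, GALNT15, GXYLT2, NOVA1, CCBE1 and TPRG1. In addition, 3 entries without a symbol were as high as the lowest of the 25.

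**Figure D1:**
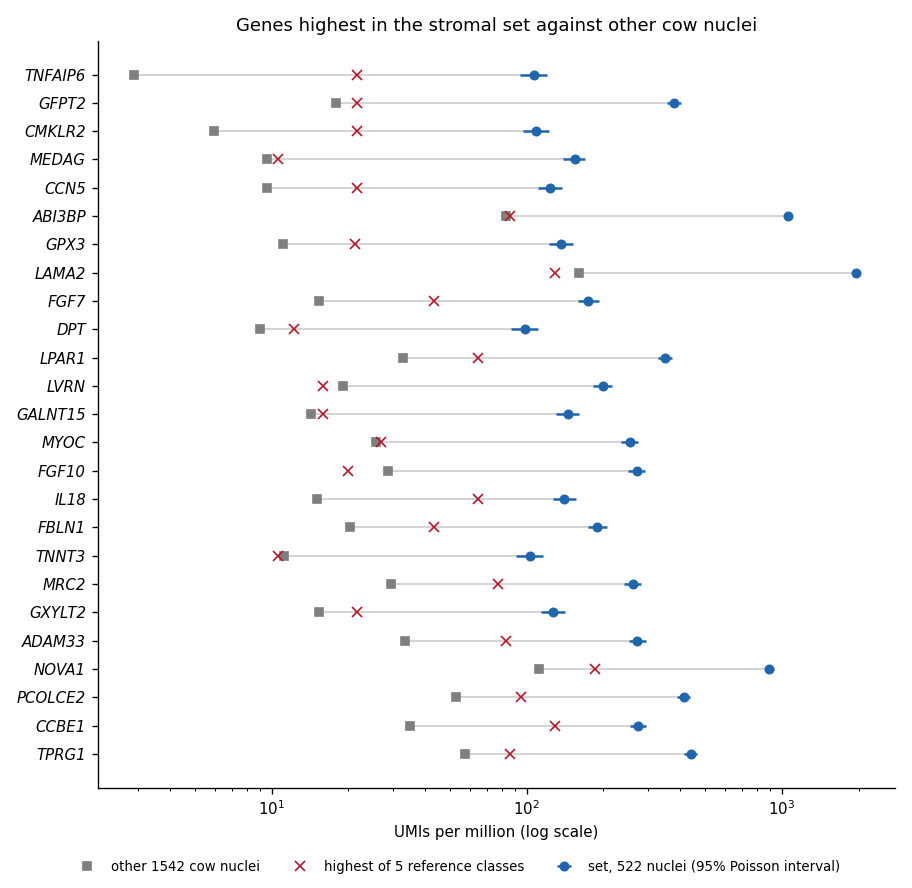
Levels in CPM on a log scale of the 25 named genes with the highest ratio of the set over other cow nuclei, with circles and 95% Poisson bars for the 522 members, squares for the other 1542 cow nuclei and crosses for the highest of 5 reference classes. Every circle lies at least 2-fold to the right of its cross, and the ratios over the squares run from 36.9 for TNFAIP6 to 7.68 for TPRG1.

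Gene lists drawn up for fat stroma were read against the background shares of 4.89% higher and 8.64% lower. Of 17 collagen genes compared, 12 were higher by 2-fold or more, none was lower by that much, and the median log2 ratio was 1.63. COL1A1, the other chain of type I collagen, stood at 1184 CPM against 155.0, and COL6A3, a type VI collagen chain that surrounds fat cells, at 1830 against 353.9. COL3A1 was 4.37-fold higher at 2402 CPM, but the adipocyte reference nuclei held 2432 CPM, and COL5A1 was likewise below the adipocyte reference. The other 10 higher collagens were above each reference class. Of 36 proteoglycan, elastic fibre and basement membrane genes, 21 were higher and none was lower by 2-fold, with a median log2 ratio of 1.40. They included osteoglycin (OGN), 12.0-fold, lumican (LUM), 10.5-fold, versican (VCAN), 4.75-fold, and microfibril-associated MFAP2, 9.89-fold. Of the 21, 17 were above each reference class. Of 22 matrix enzymes and inhibitors, 12 were higher and 3 were lower, among the former the gelatinase MMP2, 6.68-fold, and the collagen cross-linking enzyme LOXL1, 8.70-fold, and among the latter ADAMTS9, at 0.27 of the level in the other nuclei. All 12 were above each reference class.

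Genes of the interstitial progenitor were mostly higher in the set, and those of the committed preadipocyte were on both sides. Of 24 interstitial genes compared, 15 were higher and 2 were lower, with a median log2 ratio of 1.61, and all 15 were above each reference class. DACT2, an inhibitor of Wnt and TGF-beta signalling, was 14.5-fold higher on few counts, 25.5 CPM against 1.76. Fibronectin (FN1) was 7.20-fold higher, the guidance ligand SEMA3C 6.85-fold, the adhesion receptor ADGRD1 6.76-fold and tenascin-X (TNXB) 6.44-fold. The decoy chemokine receptor ACKR3 was 5.52-fold higher, the transcription factor CREB5 4.88-fold and the ligand BMP7 3.95-fold. CD55, a complement regulator that serves as a sorting marker of these cells in mice, was lower, at 13.7 CPM against 43.6, and its level in macrophage reference nuclei was 237.1. Of 22 committed preadipocyte genes, 4 were higher and 5 lower, with a median of 0.03. The aggrecanase ADAMTS5 was 5.29-fold higher, matrix Gla protein (MGP) 3.24-fold and apolipoprotein D (APOD) 3.92-fold, while the fatty acid carriers FABP4 and CD36 stood at 0.28 and 0.31 of the level in the other nuclei and were highest in endothelial reference nuclei. Of the 4 higher genes, 2 were above each reference class, and MGP was not among them. ICAM1 stood at 16.7 CPM in the set and 19.1 in the other nuclei.

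Among transcription factors of the fat lineage, 8 of 31 were higher, 1 was lower, and the median log2 ratio was 0.34. Of the 8, 6 were above each reference class. NFIX was 4.81-fold higher, BNC2 4.06-fold and PRRX1, a factor of limb and body wall mesenchyme, 3.48-fold. EBF2, which marks brown and beige precursors in mice, was 2.15-fold higher at 652.6 CPM, but mural reference nuclei held 960.5. CEBPA, which acts late in fat cell formation, was the lower one, with 2.28 CPM. Of 17 positional factors, 4 were higher: HOXA9 3.37-fold, MEIS1 2.85-fold, TBX15 2.73-fold and HOXA3 2.03-fold, and the last 3 were highest in adipocyte reference nuclei.

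Signalling lists were mixed, with ligands and receptors on both sides. In the Wnt list 9 of 22 genes were higher and 2 were lower. The secreted inhibitor SFRP4 was 8.41-fold higher, the ligand WNT11 5.72-fold, the Wnt5-type receptor ROR2 5.99-fold and the feedback target AXIN2 4.75-fold. In the hedgehog and retinoid list 6 of 18 were higher and none was lower by 2-fold. The co-receptors CDON and BOC were 6.79-fold and 4.39-fold higher, the effectors GLI2 and GLI3 5.65-fold and 3.96-fold, and ALDH1A3, which makes retinoic acid, 7.36-fold. GLI1, a target that reads out active hedgehog signalling, had 10 UMIs in the set and was too sparse to compare. In the TGF-beta, BMP and activin list 6 of 29 were higher, led by the co-receptor TGFBR3 at 4.83-fold and the secreted FSTL1 at 4.10-fold, and 4 were lower. In the PDGF and FGF list 6 of 18 were higher, with FGF18 5.11-fold and PDGFRL 3.96-fold beside FGF7 and FGF10, and PDGFB, a ligand made by endothelium, was at 0.27. Above each reference class were 7 of the 9 higher Wnt genes and 4 of the 6 hedgehog and retinoid genes, GLI2 not among them. So were 2 of the 6 higher TGF-beta, BMP and activin genes and 5 of the 6 PDGF and FGF genes.

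Complement genes were higher in 7 of 18 cases and lower in 2. C1S and C1R, the proteases that start the classical pathway, were 8.28-fold and 5.55-fold higher, factor B (CFB) 8.99-fold and C3 2.43-fold. Of the 7 higher genes, 5 were above each reference class. Of 17 steroid, thyroid and adrenergic receptors 2 were higher and 4 lower. The oestrogen receptor ESR1 was 2.05-fold higher, while the mineralocorticoid receptor NR3C2 stood at 0.40. Of 17 growth hormone, IGF, insulin and prolactin genes, 2 were lower and 4 were higher: IGFBP5 3.43-fold, IRS1 2.20-fold, IGF1 2.10-fold and PIK3R1 2.04-fold. Only IGFBP5 of the 4 was above each reference class. The growth hormone receptor (GHR) stood at 481.5 CPM against 424.5, and at 2941 in adipocyte reference nuclei. The prolactin receptor had 16 UMIs in the set.

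Of 13 immediate early genes, 5 were higher, namely NR4A1, EGR1, FOS, FOSB and JUN, at 4.92, 4.54, 2.74, 2.37 and 2.04-fold. FOS, FOSB and JUN were not above each reference class. Immediate early genes are also induced by tissue handling, and the part of handling in these values was not tested. In the contractile and myofibroblast list 4 of 11 were higher, with CTHRC1 10.4-fold, CCN2 5.89-fold, FAP 4.52-fold and CCN1 3.99-fold, and ACTA2, LMOD1, CNN1 and TAGLN were lower, ACTA2 at 0.22. Of 11 proliferation genes none was higher and CENPF was lower, and the proliferation antigen MKI67 had a UMI in 3.45% of members. In the axon guidance list 6 of 28 were higher and 6 lower, and 4 of the higher ones were above each reference class. Of the chemokine and cytokine genes IL34 was higher and 2 were lower, of 13 compared, and of 19 lipid storage genes none was higher and FABP5 was lower. IL34 was not above each reference class. Of 6 lymphatic endothelial markers PDPN was higher and LYVE1 lower, and of 5 Schwann and nerve markers NCAM1 was higher and S100B lower. Of 9 adipocyte markers none was past 2-fold in either direction, whereas 10 of 10 endothelial, 6 of 8 mural, 6 of 10 macrophage and 4 of 8 lymphocyte markers were lower, several of them genes of the rule.

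**Figure D2:**
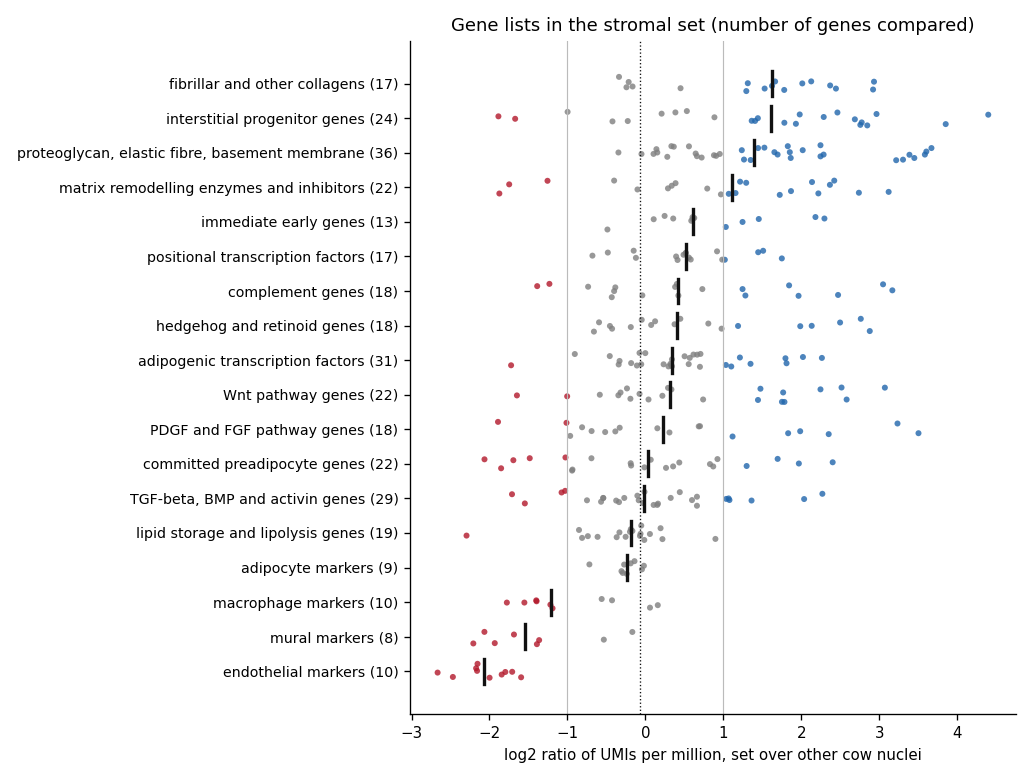
Log2 ratio of CPM, set over other cow nuclei, for each gene compared in 18 lists, with the number of genes in brackets, black bars at list medians and a dotted line at the median of all 13204 genes (−0.07). Blue and red dots are past 2-fold, and the medians run from 1.63 in collagens and 1.61 in interstitial progenitor genes to −2.08 in endothelial markers.

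DPP4 or PI16 was found in 120 of the 522 members, 23.0% (19.4 to 26.8). These positive nuclei held 1 UMI of the pair in 76 cases, and the highest count was 32. PI16 was found in 85 members with 212 UMIs and DPP4 in 48 with 58 UMIs, and 13 members had both. PI16 was found in 27.1% (15.3 to 41.8) of DPP4-positive and in 15.2% (12.1 to 18.7) of DPP4-negative members, so the intervals overlap. At least 2 UMIs of the pair were held by 44 members, 8.43%.

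The share in nuclei of other classes is given beside it as a description. DPP4 and PI16 are in A, which had to be at least 5 UMIs in members and low against their own markers in reference nuclei, so both sides were chosen partly on these genes. DPP4 or PI16 was found in 3.31% (1.72 to 5.70) of endothelial reference nuclei, whose median depth of 3960 UMIs was close to the 3970 of the set, in 0.926% of adipocyte and 1.03% of mural nuclei. It was found in 7.87% (3.84 to 14.0) of macrophage and in 26.7% (7.79 to 55.1) of the 15 lymphocyte nuclei, a share that was not below that of the set. PI16 by itself was found in 1.38% of endothelial and 1.57% of macrophage nuclei. DPP4 by itself was found in 9.20% (6.86 to 12.0) of the set, in 1.93% of endothelial, in 6.30% (2.76 to 12.0) of macrophage and in 4 of 15 lymphocyte nuclei, where T cells are known to carry it as CD26. After thinning every nucleus to 1000 UMIs, which left out none since the lowest had 1191, the share with either gene was 9.004% (6.69 to 11.8) in the set, 1.93% in endothelial, 2.36% in macrophage and 13.3% in lymphocyte nuclei, and that of PI16 was 6.90% (4.88 to 9.42) against 1.10%. DPP4 was then found in 2.30% (1.19 to 3.98) of the set, in 0.826% of endothelial and in 2.36% (0.49 to 6.75) of macrophage nuclei, and the intervals of the set and the macrophage nuclei overlap. It was found in none of 108 adipocyte and 97 mural nuclei, which allows a share of nuclei with a UMI of up to 2.78% and 3.09% by a count of 3 nuclei, with exact upper bounds of 3.36% and 3.73%.

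More of the deeper members were positive. From the third of members with the fewest UMIs to the third with the most, the positive share went from 15.5% (10.5 to 21.8) to 23.6% and 29.9% (23.2 to 37.3). Positive nuclei had a median of 4728.5 UMIs and negative ones 3744.5. The share was 22.9% and 23.1% in the 2 sublibraries and 24.9% and 21.4% in wells A11 and A12. A negative nucleus is therefore one in which no UMI was caught, not one shown to lack the transcript. DPP4 and PI16 are themselves in A, and with A taken without them the share was 22.1%.

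**Figure D3:**
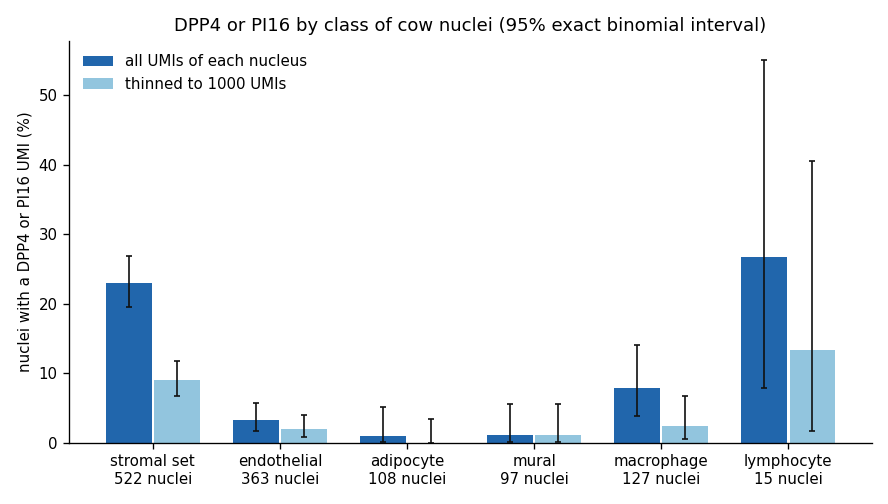
Percent of nuclei with at least 1 UMI of DPP4 or PI16 in the set and in 5 reference classes, with 95% exact binomial bars, using all UMIs (dark) or 1000 UMIs per nucleus (light). The set stands at 23.0% and 9.004%, against 3.31% and 1.93% in endothelial nuclei, and the lymphocyte bars rest on 15 nuclei.

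The 120 positive and 402 negative members were compared after thinning to 1000 UMIs. Of 1865 genes with at least 50 thinned UMIs, 170 were higher in positive nuclei by 1.5-fold or more (9.12%) and 190 were lower (10.2%), with a median log2 ratio of −0.00. A gene at the minimum rests on few counts, so lists were read against those shares. Of 9 interstitial progenitor genes compared, 6 were higher and none was lower by 1.5-fold, with a median log2 ratio of 0.74. The 6 were GFPT2, ADGRD1, SEMA3C, CREB5, PCOLCE2 and TNXB. Of 10 committed preadipocyte genes, 1 was higher, ADAMTS5, and 3 were lower, CXCL12 and the basement membrane collagens COL4A1 and COL4A2, with a median of −0.48. ADAMTS5 stood at 208.3 CPM in positive and 62.2 in negative nuclei, a ratio of 3.35 (1.85 to 6.08).

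GFPT2 had the highest ratio of the genes with at least 100 thinned UMIs. It stood at 816.7 CPM in positive and 189.1 in negative nuclei, a ratio of 4.32 (3.17 to 5.91), and with all UMIs at 825.3 and 214.4. In sublibrary 1 the levels were 900.0 and 247.5 CPM and in sublibrary 2 733.3 and 130.0, so positive nuclei were higher in both. With another random thinning of the same nuclei the ratio of GFPT2 was 2.76, below the interval given. That interval covers neither the random draw nor the choice of the highest gene. SEMA3C, a secreted guidance ligand, stood at 1167 and 510.0 CPM, 2.29-fold (1.83 to 2.85), and was found in 79.2% of positive and 53.0% of negative nuclei. ADGRD1 stood at 400.0 and 174.1 CPM, 2.30-fold (1.56 to 3.36). FLRT2, an adhesion protein that binds fibroblast growth factor receptors and UNC5 receptors, stood at 533.3 and 164.2 CPM, 3.25-fold (2.27 to 4.65). The other thinning gave FLRT2 a ratio of 2.25, just under its interval. FSTL1 stood at 683.3 and 298.5 CPM, 2.29-fold (1.71 to 3.06), and the actin-organizing formin FHOD3 at 766.7 and 328.4, 2.33-fold.

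Genes of the rule are described only, since negative nuclei had to reach A of at least 5 without DPP4 or PI16. FBN1 was higher in positive nuclei at 5008 against 2542 CPM, 1.97-fold (1.78 to 2.18), and MFAP5 stood at 516.7 against 333.3. PDGFRA did not follow them, with 283.3 and 296.0 CPM, a ratio of 0.96 (0.63 to 1.41), nor did COL1A2, with 0.87 (0.71 to 1.06). C7 went the other way, with 1 thinned UMI in positive and 37 in negative nuclei, and 19 and 159 with all UMIs, 26.8 and 82.7 CPM. Too few UMIs for the comparison were left in DACT2, BMP7 and WNT2, which with all UMIs stood at 69.2, 113.1 and 38.2 CPM in positive and 9.37, 27.6 and 14.6 in negative nuclei. They are among 20 interstitial progenitor genes with too few UMIs. The levels of the others are not given here, so nothing is read from these examples.

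Of the 20 highest genes, 10 were also at least 2-fold higher in the set than in other nuclei, and of the 20 lowest, 4 were, against 138 of the 699 named genes with at least 100 thinned UMIs, 19.7%. FBN1, a gene of the rule, is among the 10, and both groups of 20 were picked from 1 random thinning. The interval of NUMA1, among the 20 lowest, reached from 0.31 to 1.01. CXCL12, a chemokine that holds blood cells and progenitors in place, stood at 133.3 CPM in positive and 273.6 in negative nuclei, 0.49-fold (0.27 to 0.83). SDC2, a heparan sulphate proteoglycan, stood at 91.7 and 238.8 CPM, on 11 UMIs in positive nuclei, and with all UMIs at 161.1 and 247.7. SVIL and ATRNL1 were lower at 0.53 and 0.58-fold. GPAM, an enzyme of triglyceride synthesis and adipocyte marker, was at 0.60-fold (0.37 to 0.92). Of 3 adipocyte markers compared after thinning, GPAM and DGAT2 were lower, and so were ELOVL6 and FASN of 8 lipid storage genes. Of the UMIs of GPAM in the set, 851 lay in the 34 nuclei of a single sub-cluster, numbered 7 below, and 211 in all other members. For DGAT2 these were 374 and 123, and for ELOVL6 378 and 100. COL4A1 and COL4A2, lower in positive nuclei as given above, stood at 2540 and 1985 CPM in this sub-cluster. In the other members they stood at 875.1 and 623.8 CPM. None of the 34 nuclei was positive after thinning and 20.6% were with all UMIs, and the part of this sub-cluster in the lower levels was not tested. With all UMIs the adipocyte list summed to 1636 CPM in positive and 1565 in negative nuclei, with ACACA higher in positive nuclei at 870.5 against 616.6 and DGAT2 lower at 147.0 against 204.5. The endothelial list summed to 514.4 CPM in positive and 741.0 in negative nuclei. Of the collagens, COL5A1 was higher, 1.53-fold, and COL6A3, 0.60-fold (0.50 to 0.72), and COL8A1 were lower, out of 13. Of 6 genes compared in the TGF-beta, BMP and activin list 3 were higher, FSTL1, TGFBR2 and the BMP antagonist CHRDL1, and of 13 matrix enzymes 5 were. The Wnt receptor ROR1 was 1.71-fold higher (1.33 to 2.18) and ROR2 stood at 0.64-fold (0.36 to 1.08). Among 19 fat lineage factors ZNF423 and TCF7L2 were higher and none was lower by 1.5-fold.

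The 20 highest and 20 lowest genes were picked from 1 random thinning, so their ratios were set beside those with all UMIs and with another thinning. Past 1.5-fold in all 3 ways were 11 of the higher genes, GFPT2, FLRT2, FHOD3, ADGRD1, FSTL1, SEMA3C, ZFHX3, ADAM33, FBN1, DAPK1 and KCNB2, of which FBN1 is in the rule, and 5 of the lower, among them SDC2, CXCL12, SVIL and ATRNL1. The genes were chosen on the joint label, in which 85 of the 120 positive nuclei have PI16. Called by PI16 alone, 20 of the 20 higher genes were past 1.5-fold, with a median log2 ratio of 1.00, and called by DPP4 alone 8 were, with a median of 0.53. GFPT2 had a log2 ratio of 2.30 by PI16 and 0.66 by DPP4, FLRT2 2.01 and 0.13, and ADGRD1 1.66 and −0.29. SEMA3C, with 1.19 and 1.11, was nearly as high by either. The 48 DPP4-positive and 85 PI16-positive members share 13 nuclei. The other 72 PI16-positive nuclei count as negative when DPP4 alone is used, and the difference between the labels was not tested.

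**Figure D4:**
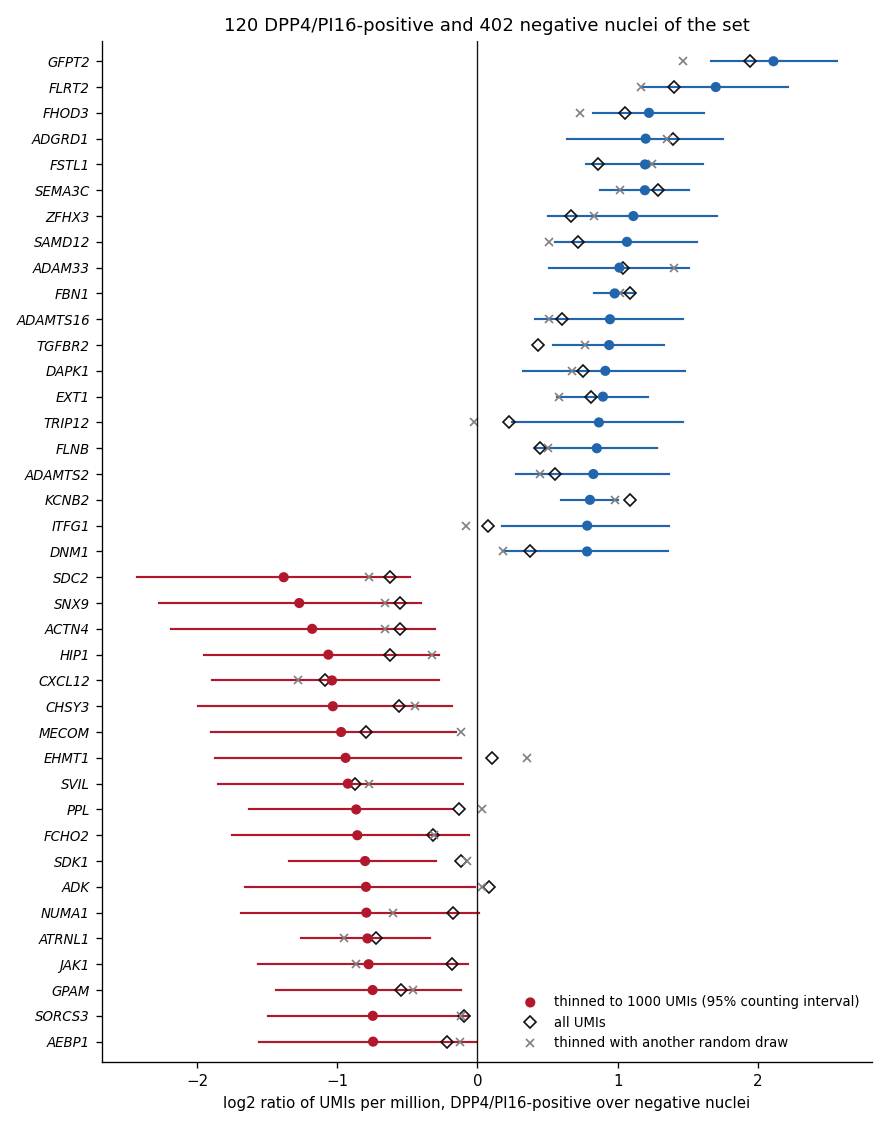
Log2 ratio of CPM in 120 positive over 402 negative members for the 20 highest genes (blue) and 19 of the 20 lowest (red), as dots with 95% counting bars at 1000 UMIs per nucleus, diamonds for all UMIs and crosses for another random thinning. GFPT2 stands at 2.11, 1.94 and 1.46, whereas EHMT1 moves from −0.94 to 0.11 and 0.35.

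Clustering the 522 members alone gave 7 sub-clusters, which are given by number and not named. Their leading genes follow from the clustering and are a description. Sub-cluster 5, with 46 nuclei, was led by GPRC5A, ADAMTS5, WNT2, SLC22A15 and PI16. It had the highest A, 15956 CPM, and the lowest B, 138.7 CPM, and 39.1% of its nuclei (25.1 to 54.6) were positive for DPP4 or PI16, and 17.4% after thinning. PI16 is both among its leading genes and part of the definition of positive nuclei. In sub-cluster 1 these shares were 25.7% (18.8 to 33.6) and 14.6%. In sub-cluster 5 the levels of FBN1, SEMA3C, GFPT2 and CREB5 were 9127, 2469, 1506 and 2354 CPM. They were at most 3270, 819.0, 334.3 and 985.8 in any of the other 6. Of the 996 UMIs of GFPT2 in the set, 380 lay in sub-cluster 5. Of the 6 interstitial progenitor genes higher in positive nuclei, only PCOLCE2 was highest elsewhere, at 725.6 CPM in sub-cluster 2 against 630.2. The part of sub-cluster 5 in the higher levels of positive nuclei was not tested. Also in sub-cluster 5, CXCL12 stood at 63.4 CPM and COL15A1 at 31.7, the lowest of the 7 in each case. Sub-cluster 3, with 94 nuclei, had the lowest share with all UMIs, 11.7% positive (5.99 to 19.97), and 1.06% after thinning, when none of the 34 nuclei of sub-cluster 7 was positive, which allows up to 8.82% by a count of 3 nuclei, with an exact upper bound of 10.3%. Sub-cluster 3 was led by CHI3L1, ADAM12, SEMA5B, ROR2 and CROCC2, and held PDGFRA at 478.4, C7 at 125.1 and CXCL12 at 322.6 CPM. Sub-cluster 2, with 116 nuclei, was led by EPHA3, MYOC, PAMR1, GCNT4 and CCDC102B, and 22.4% of its nuclei were positive.

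The other sub-clusters held markers of other cell types. Sub-cluster 4, with 47 nuclei, was led by TRPC6, ANO3, BREH1, STEAP4 and LGI4 and held mural markers at 2180 CPM. Sub-cluster 6, with 41 nuclei, was led by PODXL, BTNL9, RFLNA, KDR and CCM2L and held endothelial markers at 3263 CPM. Sub-cluster 7, with 34 nuclei, was led by GPAM, ELOVL6, LGALS12, AQP7 and DGAT2, held adipocyte markers at 10997 CPM and had the highest median depth, 7361 UMIs. Sub-cluster 1, the largest with 144 nuclei, was led by ND5, CD163, ND4, CTSB and MTSS1, held macrophage markers at 1295 CPM, and had the lowest median depth, 2563.5 UMIs, and the highest mitochondrial share, 0.0828%. A in these 4 was between 3849 and 5726 CPM. The part of these other markers in the positive shares was not tested.

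**Figure D5:**
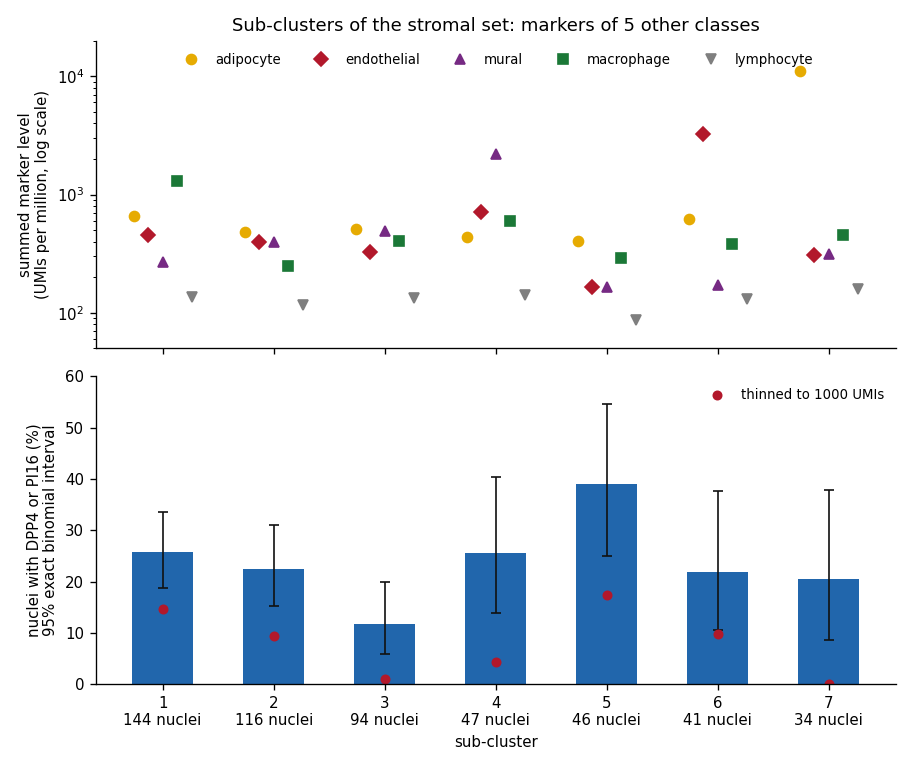
Upper panel, CPM summed over marker lists of 5 other classes in each of the 7 sub-clusters, on a log scale. Lower panel, percent of nuclei with DPP4 or PI16 with 95% exact binomial bars, and red dots for 1000 UMIs per nucleus, where sub-cluster 5 reaches 39.1% and sub-cluster 3 11.7%.

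Without sub-clusters 4, 6 and 7, which left 400 nuclei, 23.0% were positive. With the members held to A more than 2 times the summed markers of all 5 other classes, 313 nuclei were left and 26.8% were positive. DPP4 and PI16 are in A, so this share is partly fixed by the narrowing. The log2 ratio of GFPT2 in positive nuclei was then 1.80, against 2.11 in all members, and that of GPAM −0.01, against −0.75. GPAM is on a list this narrowing screens. Without the 3 sub-clusters its log2 ratio was −0.43, but GPAM is also a leading gene of sub-cluster 7, at 3211 CPM against 89.2 in the other members, so that both ways of narrowing select on it. Both ways of narrowing the set were chosen after its values were seen.

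The same rule was read in 2 rat libraries, thoracic aortic perivascular fat (taPVAT) and subscapular brown fat (BAT) of male SS/HsdMcwiCrl rats, also snap frozen and made with the same kit. At 1000 UMIs per nucleus and A of at least 2, 26.6% of cow nuclei, 10.9% of taPVAT nuclei and 3.18% of BAT nuclei met it, leaving out 1119 taPVAT and 770 BAT nuclei under that depth and none of the cow. Of those that met it 8.93% (6.68 to 11.6), 12.7% (8.14 to 18.6) and 1.64% (0.041 to 8.80, 1 of 61) were positive for DPP4 or PI16. Under the full rule with all UMIs the shares were 23.0%, 21.8% (16.6 to 27.7) of 225 and 9.23% (3.46 to 19.0) of 65 nuclei, so their order differs between the scales. Species, depot, sex, housing and steps of the nuclei preparation, such as filtering, differ together and cannot be told apart. Of the 25 genes named above, 19 could be compared in taPVAT and 15 in BAT, and all of these were at least 2-fold higher in the rat nuclei that met the full rule than in the others, against 7.23% of the 10210 genes compared in taPVAT and 13.4% of the 10364 in BAT. The rat nuclei were chosen by the same stromal markers, so that nothing is read from this count. GFPT2 was 24.5-fold higher in taPVAT and 19.7-fold in BAT, and TNFAIP6 24.1-fold in taPVAT.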

How the data were processed

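The authors separated the reads of the 2 species, mapped the cow reads to ARS-UCD1.3 in the Parse pipeline, and deposited UMI counts for each gene and barcode, not normalized. All barcodes were used as deposited. No doublet caller was run, and nuclei with markers of other classes were counted instead. The members and gene lists were chosen with earlier results of these data known. UMIs were summed over nuclei and scaled to 1000000 (CPM). Ratios have exact conditional binomial intervals, levels exact Poisson and shares exact binomial intervals, at 95%. A group with no UMI entered as 3 counts. Reference nuclei of a class had at least 5 UMIs of its markers and more than 2 times those of A and the other classes. Thinning drew 1000 UMIs per nucleus without replacement. Genes were named as the 25 highest in the set, the 20 highest and 20 lowest between positive and negative members with at least 100 thinned UMIs, the members of 31 lists, and the 5 leading genes of each sub-cluster. The Leiden algorithm (scanpy 1.11.5, resolution 0.5, 20 components, 15 neighbours, 2000 variable genes) gave the sub-clusters. Of 36075 entries, 16442 have only an identifier and were not listed. The ratio step was tested on simulated data. Alternatives changed the rule, UMI minima, depth, sublibrary and members. Single genes counted in these numbers are not all reported here by name.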

Additional observations from a re-analysis of the deposited data

How the results depend on the processing

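All values rest on 1 library, and single genes near 50 thinned UMIs are set by few counts. No paired analysis was possible because there is 1 sample per group. The share of cow nuclei taken, 25.3%, became 28.8% at A of at least 3, 21.3% at A of at least 8, 21.2% at A over 4 times B, 8.09% with no UMI of B, 28.0% without the upper limit on UMIs and 15.2% with few markers of other classes, an alternative chosen after seeing the data. Genes 2-fold higher in the set went from 646 to 425 after thinning and 390 at a minimum of 200 UMIs. Lower genes went from 1141 to 678 and 636 in these ways, to 1724 at a minimum of 20 UMIs, 2203 for members with no UMI of B and 1812 with few markers of other classes. None of the 25 genes named for the set turned its direction in 10 alternatives. The minima of 20 and 200 UMIs are among these and could turn none. The genes were picked for ratios of 7.68 or more, so little is read from this. The positive share of 23.0% became 9.004% after thinning, 16.3% for PI16, 9.20% for DPP4 and 8.43% at 2 UMIs. Genes higher in positive nuclei went from 170 to 344 by DPP4 alone, 405 with all UMIs, 632 and 55 at minima of 20 and 100 thinned UMIs, 66 in sublibrary 2, 56 with no UMI of B and 99 with few markers of other classes. Lower genes went from 190 to 521 with thinned labels, 310 by PI16 alone, 312 at 2 UMIs, 781 with all UMIs, 838 and 48 at the same minima, 81 and 122 in sublibraries 1 and 2, 59 with no UMI of B and 118 with few markers of other classes. The number of genes compared ran from 365 to 7349, and the higher genes, 9.12% of those compared, ran from 5.51% with all UMIs to 18.4% by DPP4 alone, with 16.1% in sublibrary 1 and at 2 UMIs and 15.3% with no UMI of B. The lower genes, 10.2%, ran from 6.60% at a minimum of 100 to 27.9% with thinned labels. Of the 20 higher and 20 lower genes, 16 and 14 kept their direction in all 15 alternatives. A change of the UMI minimum leaves the ratio of a gene as it is, so the minima of 20 and 100 could turn none. The log2 ratios that turned were DAPK1 (−0.21 with thinned labels), ADGRD1 (−0.29), CXCL12 (0.30) and MECOM (0.041) by DPP4 alone, EHMT1 (0.11) and ADK (0.083) with all UMIs, MECOM (0.54) and GPAM (0.033) with no UMI of B, and TRIP12 (−0.027), ITFG1 (−0.082), EHMT1 (0.35), PPL (0.030) and ADK (0.035) with another random thinning. The 7 sub-clusters became 4 at resolution 0.3 and 12 at resolution 1.0. The causes of these moves were not tested, other than fewer or more genes and UMIs entering.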
